A study of Mus musculus with 6 samples.

Results

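The regions described here are stretches of 50 kb with a domain boundary on the summed contact map of mouse embryonic stem cells with a mutant CTCF protein. The summed map of wild-type cells had none within 50 kb, though single wild-type libraries could have one. They were 683 of the 3576 boundaries found on the contact maps of the 2 lines. The other boundaries were 1528 shared by Del8 and WT and 1365 called only in WT. The members made up 30.9% of the 2211 boundaries of the Del8 map. Hi-C records which parts of the genome lie close together in the nucleus, by joining their ends after crosslinking. It was carried out on 3 libraries labelled GFP-CTCF-Del8 (Del8) and 3 labelled wild type (WT), all from ES cells of strain 129. The series' design text says that Del8 cells express CTCF without zinc finger 8 and that the comparison cells express GFP-CTCF, and it speaks of biological replicates. Whether the WT libraries carry the GFP tag, and how many clones were used, is not given in the sources used here. Hi-C measures no expression, so the cell type was not checked against markers.

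CTCF binds DNA through a row of zinc fingers. Cohesin extrudes loops of chromatin and halts at bound CTCF, so that contacts are frequent inside a domain and rarer across its border. Such a border appears on a contact map as a dip of the insulation score, here log2 of the mean contact in a 500 kb square across a 50 kb bin over the chromosome's mean. Borders also form at active promoters and where active and inactive chromatin meet.

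The members were chosen by this score itself. The 3 Del8 files and the 3 WT files were each scaled to equal totals and summed, the 2 maps were balanced per chromosome, and a boundary was a local minimum with a prominence of 0.2 or more. Prominence is the height of the lower shoulder above the dip, on the log2 scale. Every difference of score between Del8 and WT below therefore describes how the members were chosen, and no test is given for it. The members just inside the threshold had prominences of 0.2001 (chromosome 2, 166050001 to 166100000) and 0.2 (chromosome 5, 39800001 to 39850000). Dips just outside it had 0.1997 (chromosome 3, 55050001 to 55100000, with the start of the cyclin gene Ccna1) and 0.1993 (chromosome 14, 18300001 to 18350000, with the start of Ube2e1, a ubiquitin-conjugating enzyme).

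A promoter listed by RefSeq lay in 270 of the 683 member bins. The promoters below (GRCm38.p6, 300 bases each) are shown because their bins were found under all 10 of the settings named further on and because they hold the inner letters of the CTCF core motif. They come from the first 3 such bins in order of prominence, 1 promoter a bin, read 5′ to 3′ on the gene's strand. Capitals mark a match to AGGNGGC, which was searched on either strand. Tex12 codes for a protein of the synaptonemal complex of meiosis (chr9:50561219-50561518, minus strand), Timm23 for a channel of mitochondrial protein import (chr14:32201842-32202141, minus strand) and Tsfm for an elongation factor of mitochondrial translation (chr10:127030765-127031064, minus strand).
Tex12: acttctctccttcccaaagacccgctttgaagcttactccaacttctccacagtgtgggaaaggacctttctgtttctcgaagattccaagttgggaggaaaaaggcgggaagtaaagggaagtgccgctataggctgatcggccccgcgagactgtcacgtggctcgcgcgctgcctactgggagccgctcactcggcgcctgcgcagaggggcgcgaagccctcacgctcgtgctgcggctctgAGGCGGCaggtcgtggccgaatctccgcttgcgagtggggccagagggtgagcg
Timm23: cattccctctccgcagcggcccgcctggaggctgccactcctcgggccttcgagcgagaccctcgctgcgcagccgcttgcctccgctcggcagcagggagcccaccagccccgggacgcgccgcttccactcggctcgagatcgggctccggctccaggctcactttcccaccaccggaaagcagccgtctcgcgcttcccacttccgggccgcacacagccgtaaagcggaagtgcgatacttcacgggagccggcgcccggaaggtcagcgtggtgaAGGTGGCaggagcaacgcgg
Tsfm: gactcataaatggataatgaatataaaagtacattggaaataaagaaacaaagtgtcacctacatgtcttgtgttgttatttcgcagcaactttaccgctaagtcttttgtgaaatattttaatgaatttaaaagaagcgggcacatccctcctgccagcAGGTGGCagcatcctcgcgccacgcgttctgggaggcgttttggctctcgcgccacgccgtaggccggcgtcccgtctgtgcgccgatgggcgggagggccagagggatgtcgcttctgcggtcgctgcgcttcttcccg
The match lies on the gene's strand in each of these promoters. In the bin of Timm23 the overlapping promoter of Parg, not printed, held 2 matches, both on the strand opposite to Parg. Of 549 promoters in member bins 188 (34.2%) held such a match, against 583 of 1780 (32.8%) in shared boundary bins, 314 of 967 (32.5%) in WT-only bins and 9238 of 31396 (29.4%) of all autosomal promoters. In the bins of well-covered members (defined below) the share was 135 of 319 (42.3%). A longer form of the same core, not spelled out here and searched first, was found in 31 of 549 promoters in member bins (5.65%), of which 26 lay among the 319 at well-covered members (8.15%). It was found in 87 shared (4.89%) and 38 WT-only (3.93%) promoters, and in 1093 of all autosomal promoters (3.48%). The shares were not compared with promoters of equally covered bins, and their differences were not tested. A match of letters is not evidence of binding.

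The libraries did not cover the members alike. They held 65173364, 46375877 and 37788037 autosomal contacts (Del8 replicates 1 to 3) and 24036221, 24509828 and 36107570 (WT replicates 1 to 3). At the members, the median number of contacts per bin was 2012, 1463 and 1231 in Del8 replicates 1 to 3 and 817, 803 and 1155 in WT replicates 1 to 3. Coverage was under 0.1 of the library's own scale, its 80th percentile over bins, at 0%, 0.732% and 8.64% of members in Del8 and at 30.8%, 32.5% and 1.02% in WT. WT replicates 1 and 2 thus lacked most contacts at many members, while WT replicate 3 did not. For this reason the members were divided by coverage after the data were examined. A member was called well covered if at least 90% of the 21 bins in and around it passed a strict screen, which asks for even coverage in all 6 libraries. This held for 223 members (32.7%), against 768 of 1528 shared boundaries (50.3%), 374 of 1365 WT-only boundaries (27.4%) and 41.6% of 44595 scored bins. The part of uneven coverage in the calls at the other 460 members was not tested.

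The members were less prominent dips than the shared boundaries and about as prominent as those called only in WT. Their median prominence on the Del8 map was 0.43 (quartiles 0.30 and 0.65), against 0.66 (0.41 and 1.00) at shared boundaries and, on the WT map, 0.45 (0.29 and 0.84) at WT-only boundaries. Well-covered members had a median of 0.47. All 19 autosomes held members, from 17 on chromosome 19 to 67 on chromosome 1. Per 100 scored bins they ranged from 1.23 on chromosome 16 to 1.92 on chromosome 3.

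Read on each library's own map, a boundary lay within 50 kb of 513, 517 and 528 of the 683 members in Del8 replicates 1 to 3, and of 114, 106 and 192 in WT replicates 1 to 3. All Del8 libraries and no WT library had it at 157 members (23%), and no WT library had it at 361. At the 1528 shared boundaries the share was 86.2%, 92.0% and 88.4% in Del8 and 59.5%, 60.8% and 93.1% in WT. WT replicates 1 and 2 thus also lacked many shared boundaries on their own maps. All Del8 libraries and no WT library had a boundary at 15 shared boundaries (0.98%). At 7 members all 3 WT libraries had a boundary on their own maps although their sum did not, and 15 members were in no single Del8 library. Among the 223 well-covered members the share was 91.9%, 88.8% and 91.9% in Del8 and 25.6%, 25.6% and 14.8% in WT, and 89 (39.9%) were in all Del8 libraries and no WT library. Among the other 460 it was 67.0%, 69.3% and 70.2% in Del8 and 12.4%, 10.7% and 34.6% in WT. WT replicate 3 was thus the lowest WT library at well-covered members and the highest at the others.

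**Figure D1:**
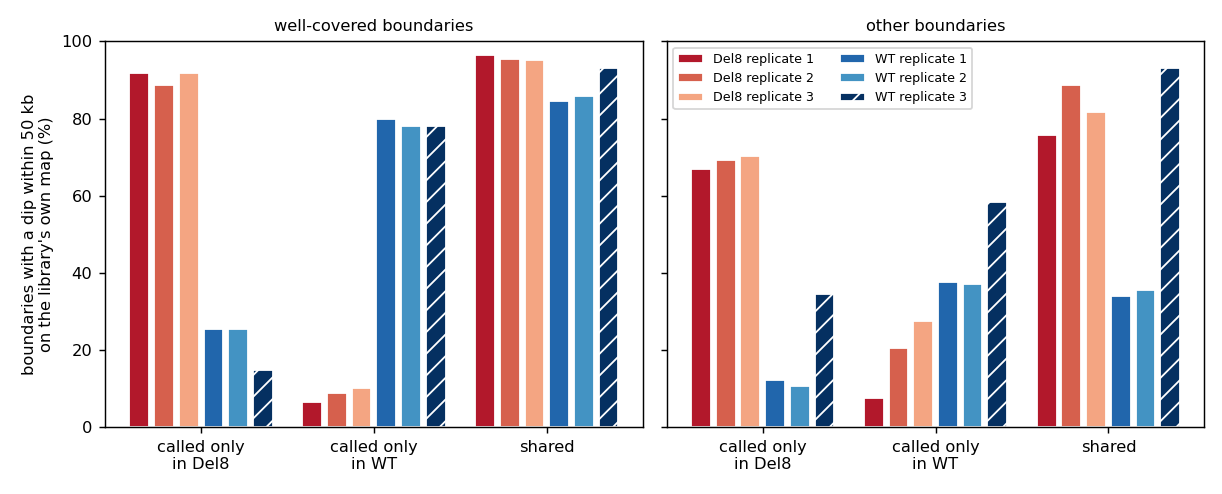
Share of boundaries of each class (vertical axis, %) with a dip of prominence 0.2 or more within 50 kb on each library's own map; bars are single libraries. At well-covered boundaries called only in Del8, the Del8 libraries reach 88.8% to 91.9% and the WT libraries 14.8% to 25.6%; at the other members WT replicate 3 reaches 34.6%, against 12.4% and 10.7% in WT replicates 1 and 2.

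Libraries left out of the calling gave a further readout of the same measure. It was not wholly independent, since the screens of bins by coverage used all 6 libraries, those left out included. The rule was applied again without 1 Del8 and 1 WT library, for all 9 pairs, and the members so found were looked up in the 2 libraries left out. On average 60.2% were found again in the Del8 library left out, against 33.2% in the WT library left out. The Del8 share was the higher in 8 of 9 pairs. Shared boundaries, treated the same way, were found again at 84.25% in Del8 and 66.4% in WT on average. Del8 was the higher in 9 of 9 pairs there, so a higher share in Del8 was not particular to the members. The result at the members depended on which WT library was left out. With WT replicate 1 or 2 left out, 53% to 62.9% were found again in Del8 and 18.7% to 22.3% in WT. With WT replicate 3 left out, 1092 to 1385 members were called, and 56.5% to 70.2% were found again in Del8 and 56.6% to 60.3% in WT. On bins that passed the strict screen, 306 to 322 members were called in each round, and 78.6% to 81.4% were found again in the Del8 library and 17.6% to 22.1% in the WT library, with Del8 higher in 9 of 9 pairs. With the same screen, boundaries called only in WT were found again in 12.4% to 14.9% of cases in Del8 and 74.0% to 85.8% in WT. For shared boundaries it was 93.3% to 94.3% in Del8 and 91.4% to 93.8% in WT. Pairs share libraries and are not independent, so no p-value is given, and the difference between these classes was not tested.

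**Figure D2:**
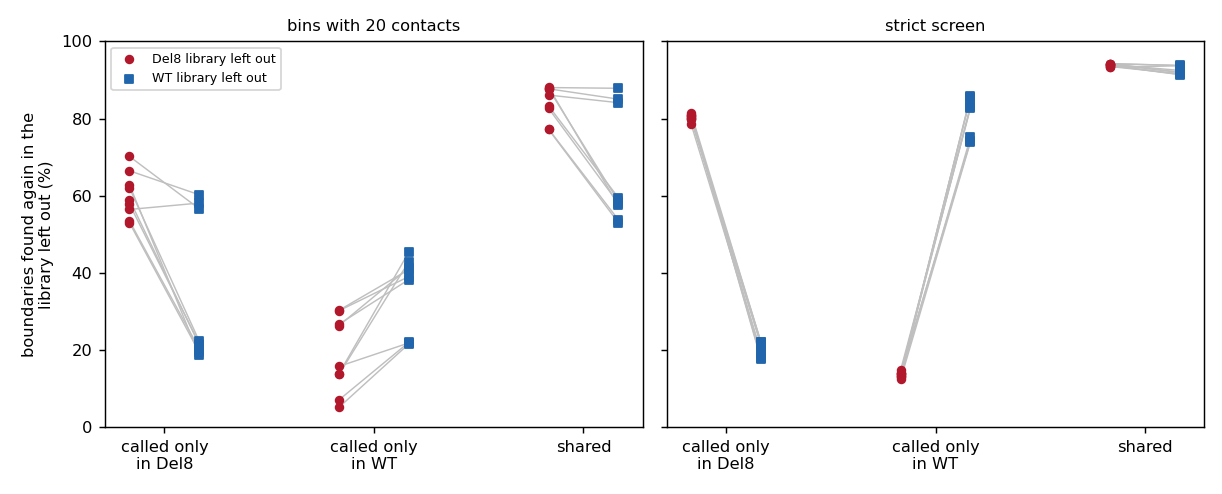
Share of boundaries (vertical axis, %) found again in the Del8 library (circles) and the WT library (squares) that were left out when the boundaries were called; each line joins 1 of the 9 pairs. With the strict screen every Del8 library finds 78.6% to 81.4% of the boundaries called only in Del8 and every WT library 17.6% to 22.1%; with bins of 20 contacts the 3 pairs without WT replicate 3 have 56.6% to 60.3% in WT.

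At well-covered members the score differed less between Del8 and WT than the dip below its shoulders. On the summed maps the median score at the 223 well-covered members was -0.31 in Del8 and -0.28 in WT, with a median difference of -0.03. The score was lower in Del8 at 125 of 223. The mean score 250 kb to either side was higher in Del8 at 175 of 223, with a median difference of 0.07. Both held at 85 members, a lower score without higher shoulders at 40, higher shoulders without a lower score at 90, and neither at 8. The depth of the dip, the score minus that of its shoulders, was -0.32 in Del8 and -0.21 in WT. It was greater in Del8 at 174 members. The same maps chose the members, and the shares over all scored bins were not computed for these counts. A WT boundary lay within 250 kb of 140 of the 223, so a shoulder could fall on or near its dip.

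The strict-screen maps of single libraries showed the same at the 211 well-covered members scored there with both shoulders. The median score was -0.37, -0.37 and -0.38 in Del8 replicates 1 to 3 and -0.33, -0.32 and -0.30 in WT replicates 1 to 3. The dip was -0.35 ± 0.0040 in Del8 and -0.22 ± 0.02 in WT (SD, n = 3 each), so the groups did not overlap in this median. A boundary was called at 88.5% ± 0.547 of them in Del8 and 19.3% ± 1.66 in WT. Member by member, the dip was deeper in every Del8 library than in every WT library at 116 (55.0%) and shallower at 17 (8.06%), beside 34.4% and 29.8% of 18044 scored bins. The score was lower in all Del8 libraries at 104 of 222 and higher at 44, beside 32.9% and 34.3% of 22021 bins. The same contrast chose the members, so nothing is read from these counts. At 697 shared boundaries the dip was -0.49 ± 0.0062 in Del8 and -0.57 ± 0.02 in WT.

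**Figure D3:**
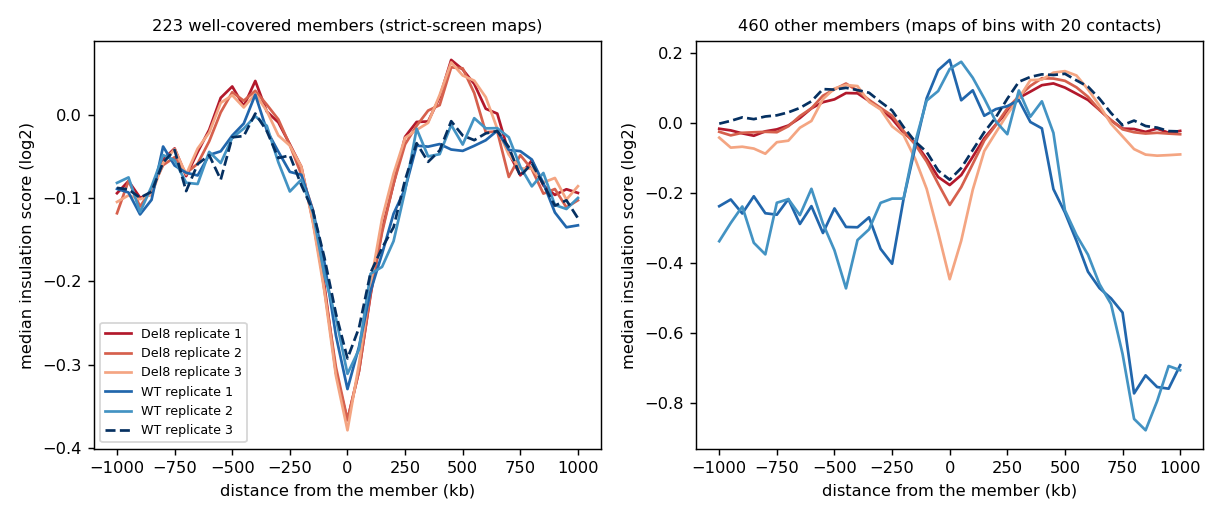
Median insulation score (log2, vertical axis) by distance from the member (kb) in each of the 6 libraries, at the 223 well-covered members on strict-screen maps (left) and at the other 460 on maps of bins with 20 contacts (right). On the left all libraries dip at the member, to -0.37 to -0.38 in Del8 and -0.29 to -0.33 in WT; on the right the 2 WT libraries short of contacts, replicates 1 and 2, have no dip and scores above 0.

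The distance from each member to the nearest boundary of the WT map was also read. It was 100 kb at 159 members, 150 to 250 kb at 293, 300 to 500 kb at 177 and more at 54. WT boundaries were frequent, 2893 beside 44595 scored bins, and the distances of all scored bins were not computed. Within 250 kb there was a WT boundary at 452 members, and at 447 of them it was itself absent from the Del8 map. Such a WT boundary counts as shared only if the Del8 map has a further boundary close to the member. How often Del8 boundaries lie so close together was not computed, so nothing is read from this count. Conversely, 475 of the 1365 WT-only boundaries (34.8%) had a member within 250 kb, against 447 of 683 members (65.4%) with a WT-only boundary. Among the 138 well-covered members of this kind the median score at the WT boundary was -0.23 in Del8 and -0.49 in WT, higher in Del8 at 128. At the member it was -0.34 in Del8 and -0.38 in WT. In Del8 the member was the deeper dip of the pair at 136 of 138, and in WT at 0 of 138. The rule fixes much of this order, and squares of bins so close share contacts. At 10 of the 138 the WT boundary's score was not higher in Del8. Of all 374 well-covered WT-only boundaries, 25 (6.68%) had a lower score in Del8, with a median difference of 0.25. The rise at these neighbours was thus near that of the whole class.

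**Figure D4:**
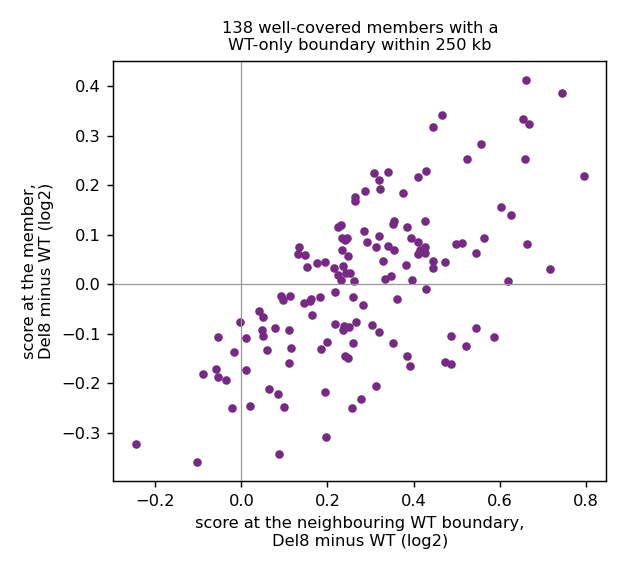
Difference of score, Del8 minus WT (log2), at 138 well-covered members (vertical axis) against that at the neighbouring boundary called only in WT (horizontal axis); each point is a member. The median is 0.26 at the WT boundary and 0.0096 at the member; 55 points combine a higher score at the WT boundary with a lower one at the member, and 73 a higher one at the WT boundary without a lower one at the member.

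The WT map was not flat at the members. A WT minimum below the threshold lay within 50 kb of many members, with a prominence of 0.1 to 0.2 at 143 and less at 221. No minimum of any size was found at 319 (46.7%). Among well-covered members the counts were 68, 74 and 81 (36.3%). At 1 member, on chromosome 9 at 89200001 to 89250000 with the start of Mthfs, an enzyme of folate metabolism, the WT map had no score. Each of the 677 members with WT boundaries on both sides split an interval between successive WT boundaries. These intervals had a median length of 1000 kb, against 750 kb for all 2874 WT intervals, and a longer interval has more room for a member. The median distance from a member to the nearer end was 200 kb.

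Gene content differed with coverage. The bin held the start of a protein-coding gene at 255 of 683 members (37.3%), against 55.0% of shared boundaries, 33.5% of WT-only boundaries and 30.4% of all scored bins. Among well-covered members it was 135 of 223 (60.5%), against 69.4% of shared and 65.0% of WT-only boundaries that were well covered, and 44.6% of well-covered bins. The other members had a gene start in 120 of 460 bins (26.1%), against 40.4% of shared and 21.6% of WT-only boundaries that were not well covered. The active A compartment was set by gene density on the map of the 3 libraries with the fewest lost bins. It held 91.9% of the 223 well-covered members and 86.3% of well-covered bins. Of well-covered shared boundaries it held 90.4%, and of well-covered WT-only boundaries 86.6%. It held 98 of 459 other members (21.4%), against 32.5% of shared and 16.2% of WT-only boundaries that were not well covered. A border between compartments lay at or beside 116 of all members (17.0%), 404 shared boundaries (26.4%), 199 WT-only boundaries (14.6%) and 18% of scored bins. Among those well covered it was 12.6% of members, 21.7% of shared and 13.4% of WT-only boundaries, and 15.3% of bins. Compartments were read in bins wider than 50 kb, so such a border can lie outside the member's own bin. These shares are descriptions, and their differences were not tested.

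Contact at greater distances across the members was near the level of all bins. Pairs of bins on either side of a bin, more than 1 Mb and up to 2 Mb apart, lie outside the 500 kb square. On bins that passed the strict screen limma called 5507 of 18607 bins higher in Del8 (29.6%) and 3393 lower (18.2%) at an adjusted p under 0.05. Of 230 members tested there 68 were higher (29.6%) and 41 lower (17.8%), with a median difference of 0.02 on the log2 scale, against 0.03 over all bins. On all bins with 20 contacts in every library limma called 0 of 37991 (0% higher and 0% lower), and so 0 of 546 members. There 4575 bins were higher and 1320 lower at an unadjusted p under 0.05. EdgeR on the raw counts called 555 and 1191, and DESeq2 2994 and 7213. The median spread within groups was 0.435 on the log2 scale there and 0.0651 with the strict screen. In values simulated with this spread, limma recovered 0% of 200 planted log2 changes of 1 there, and 100% with the strict screen. The 0 calls on bins with 20 contacts therefore do not show that contact was unchanged.

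Of the 8 members with the greatest prominence, only that on chromosome 8 at 123500001 to 123550000 met the rule for well-covered surroundings, though several others had even coverage in the bin itself. That bin holds the starts of Dbndd1 and of Gas8, a part of the dynein regulatory complex of cilia. Its strict-screen score was -1.50, -1.43 and -1.49 in Del8 replicates 1 to 3 and -1.23, -1.26 and -1.16 in WT replicates 1 to 3, and no library had a boundary there on that map. The Zscan25 bin came near the rule, with 85.7% of the bins in and around it passing the strict screen. The Mthfs bin led with 5.19, from a score in Del8 replicate 1 alone among the single libraries. It was followed by bins that begin at 114100001 of chromosome 4 (2.56) and at 20650001 of chromosome 8 (2.55), and by that of Zscan25, a zinc finger gene, on chromosome 5 at 145250001 (2.29). The others were at Scgb2a2, a secretoglobin gene, on chromosome 19 (9800001, 1.77), at S100a7a, S100a8 and S100a9, calcium-binding proteins of myeloid and epithelial cells, on chromosome 3 (90650001, 1.52), and on chromosome 3 at 123450001 (1.39). In the S100a bin the scores were -0.89, -0.88 and -0.63 in Del8 replicates 1 to 3 and 1.20, 0.77 and -1.16 in WT replicates 1 to 3, so that WT replicate 3 was the lowest of all 6.

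No protein-coding gene starts in the bin with the largest fall of score between the summed maps (chromosome 1, 179850001 to 179900000). Its strict-screen score was -0.97, -0.94 and -0.998 in Del8 replicates 1 to 3 and -0.12, -0.22 and -0.16 in WT replicates 1 to 3. Every Del8 library lay far below every WT library. The nearest WT boundary, 350 kb lower on the chromosome, was at -0.52, -0.39 and -0.52 in Del8 and -0.86, -0.66 and -0.64 in WT. The other 7 of the 8 largest falls were not well covered. They lay on chromosome 1 at 18300001 and, with Ly96, the partner of the endotoxin receptor, and Tmem70, an assembly factor of ATP synthase, at 16650001. The rest began at 8050001 of chromosome 9, at 33200001 of chromosome 19, at 104700001 of chromosome 5, at 55300001 of chromosome 18 and, with Stpg2, at 139200001 of chromosome 3. In the bin of Ly96 and Tmem70 the scores were -0.13, -0.11 and -0.29 in Del8 and 1.61, 1.70 and 0.12 in WT, with WT replicate 3 nearest to Del8. In the Stpg2 bin they were -0.37, -0.43 and -0.34 in Del8 and 1.67, 1.79 and -0.48 in WT, so that WT replicate 3 lay below every Del8 library and had a boundary there. Against WT replicate 3 alone the difference was 0.09 at Stpg2, against -0.58 with all libraries, and -0.18 on chromosome 19, against -0.71. Without WT replicate 3 it was 0.39 in the chromosome 1 bin at 18300001, against -0.75 with all libraries. At 179850001 it was -0.78 with WT replicate 3 alone and -1.39 without it.

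Members found in all Del8 libraries and no WT library were led by the Zscan25 bin and the chromosome 1 bin at 179850001. At Zscan25 the strict-screen scores were -1.64, -1.59 and -1.64 in Del8 and -1.58, -1.80 and -1.51 in WT, and they overlapped. The next was at F2rl3, a thrombin receptor gene, on chromosome 8 (72750001 to 72800000). Its scores were -0.74, -0.67 and -0.67 in Del8 and -0.85, -0.91 and -0.75 in WT, so the bin was less insulated in every Del8 library. The WT boundary 100 kb lower on the chromosome was at -0.54, -0.57 and -0.60 in Del8 and -1.20, -1.28 and -1.11 in WT. On chromosome 9 at 50550001 to 50600000, with Bco2, a carotenoid-cleaving enzyme, the cytokine gene Il18 and Tex12, whose promoter is printed above, the scores were -0.70, -0.68 and -0.72 in Del8 and -0.95, -0.79 and -0.77 in WT. The WT boundary 150 kb lower was at -0.57, -0.62 and -0.52 in Del8 and -0.98, -0.86 and -0.85 in WT. On chromosome 15 at 75850001 to 75900000, with Eef1d, a translation elongation factor subunit, Gsdmd, the pore former of pyroptosis, and Naprt, an enzyme of NAD synthesis, they were -0.91, -0.82 and -0.91 in Del8 and -0.88, -0.91 and -0.80 in WT. The WT boundary 150 kb lower was at -0.70, -0.70 and -0.74 in Del8 and -1.07, -1.14 and -1.09 in WT. In these 3 places the neighbouring dip was shallower in every Del8 library, while the member's own score was higher or overlapped. The remaining members of this kind among the 8 most prominent were not well covered. They were those of Gm1979, Gm5862 and Speer4a (chromosome 5, 26000001), Plaat5 (chromosome 19, 7600001) and Potegl (chromosome 2, 23200001).

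**Figure D5:**
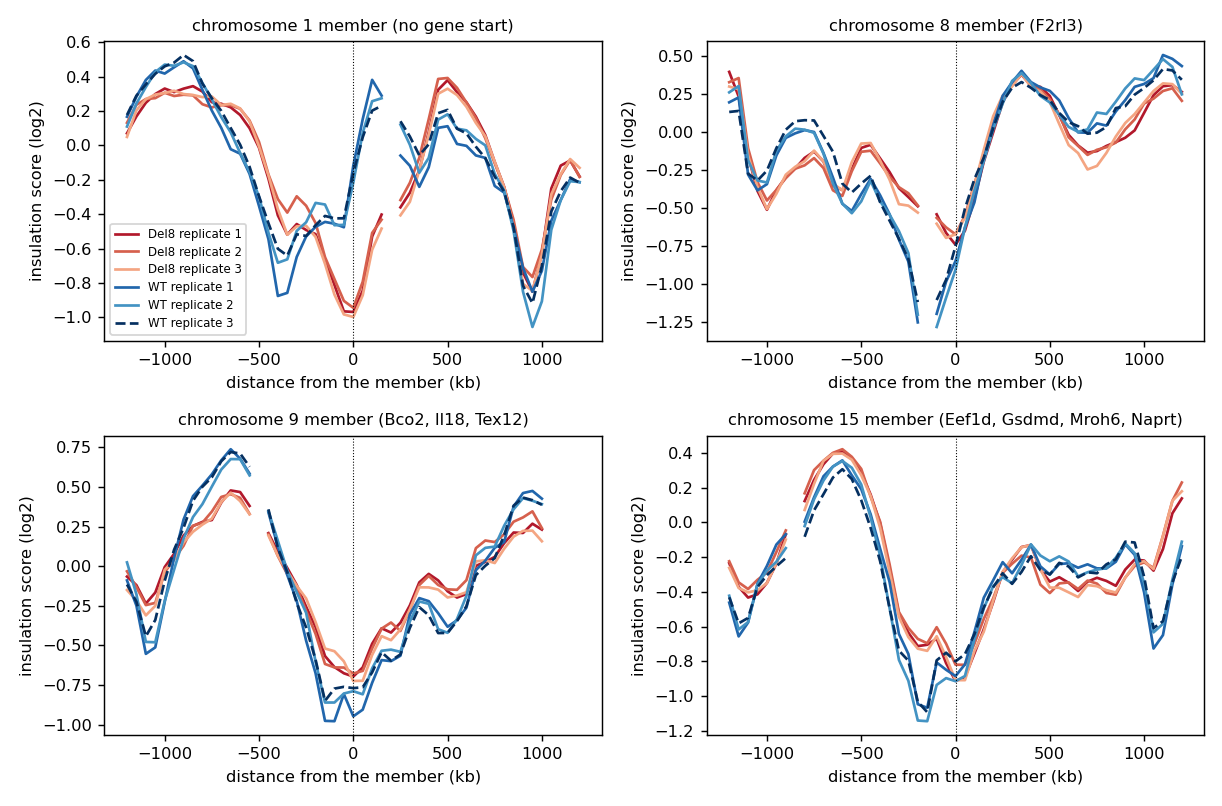
Strict-screen insulation score (log2, vertical axis) of the 6 libraries by distance (kb) from 4 well-covered members (dotted line); gaps are bins without a score. At the chromosome 1 member the Del8 libraries reach -0.94 to -0.998 and the WT libraries -0.12 to -0.22; at the members on chromosomes 8, 9 and 15 the WT libraries have their minimum 100 or 150 kb to the left.

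The members were also followed through 10 other settings: a 250 kb square, the strict screen, WT replicate 3 as the only WT library, minima sought only between gaps, and each library left out in turn. A boundary called only in Del8 remained within 50 kb under all 10 at 45 members, of which 42 were well covered. These settings were chosen after the data were examined. Among them, members were most often lost under the strict screen, where 196 of 683 (28.7%) remained, under the 250 kb square, where 270 (39.5%) remained, and with WT replicate 3 alone, where 491 (71.9%) remained. Of the 223 well-covered members 181, 70 and 190 remained in these. Outside the 10, a 1 Mb square kept 30% of the members (76 of them well covered) and maps without balancing kept 35.9% (99 of them well covered). The median dip of the 45 members kept under all 10 was -0.33 in Del8 and -0.18 in WT on the summed maps. Of them 32 had a WT-only boundary within 250 kb, higher in Del8 at 32 of 32, with a median score of -0.21 in Del8 and -0.51 in WT. Over all 1365 WT-only boundaries the score was lower in Del8 at only 116 (8.50%).

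The following members of this set were chosen after their values were seen. On chromosome 14 at 32200001 to 32250000 start Parg, which removes poly(ADP-ribose), and Timm23. The score there was -0.95, -0.95 and -0.98 in Del8 replicates 1 to 3 and -0.69, -0.69 and -0.71 in WT replicates 1 to 3, so the member was deeper in every Del8 library. The WT boundary 300 kb higher on the chromosome was at -0.45, -0.47 and -0.47 in Del8 and -1.05, -1.13 and -0.91 in WT. On chromosome 13 at 69650001, without a gene start, the score was -0.47, -0.55 and -0.56 in Del8 and -0.35, -0.37 and -0.33 in WT. In the bin of Tsfm, whose promoter is printed above, start also Avil, an actin-binding protein, Cyp27b1, which activates vitamin D, and Mettl1, a tRNA methyltransferase (chromosome 10, 127000001 to 127050000). Its score was -0.91, -0.90 and -0.89 in Del8 and -1.11, -1.02 and -1.01 in WT, and the WT boundary 150 kb lower was at -0.56, -0.55 and -0.55 in Del8 and -1.39, -1.25 and -1.25 in WT. At Tesc, a calcium-binding protein, on chromosome 5 (118000001) the scores were -0.74, -0.70 and -0.74 in Del8 and -0.81, -0.81 and -0.74 in WT, with WT replicate 3 within the Del8 range. At Zfp518a, a zinc finger gene on chromosome 19 (40850001), they were -0.39, -0.40 and -0.38 in Del8 and -0.10, -0.0055 and -0.05 in WT.

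The gene lists followed for this tissue are given as counts of the bins in which their genes start, beside the members' share of all scored bins, 683 of 44595 (1.53%). Every listed bin holds a gene start, while a protein-coding gene started in 37.3% of members and 30.4% of all scored bins. The share of 1.53% is thus not that of bins with a gene start. Counts so small were not tested. Of 20 pluripotency bins 1 was a member, that of Esrrb, a nuclear receptor of naive stem cells (chromosome 12, 86400001 to 86450000). Its strict-screen score was -0.14, -0.11 and -0.15 in Del8 and -0.14, -0.16 and -0.15 in WT, which overlapped. The dip there was -0.17, -0.16 and -0.14 in Del8 and -0.07, -0.08 and -0.07 in WT. Of 25 bins of imprinted genes 1 was a member, that of Kcnq1, a potassium channel gene (chromosome 7, 143100001 to 143150000). Its score was -0.18, -0.18 and -0.17 in Del8 and 0.07, 0.11 and 0.07 in WT, with every Del8 library below every WT library. Of 12 bins of CTCF and cohesin genes 1 was a member, that of the cohesin subunit Smc3 (chromosome 19, 53600001 to 53650000). It scored -0.69, -0.76 and -0.73 in Del8 and -0.57, -0.47 and -0.52 in WT, and WT replicates 1 and 3 also had a boundary there on these maps.

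Of 13 Hox bins 1 was a member, that of Hoxb13 (chromosome 11, 96150001), with scores of -0.33, -0.37 and -0.32 in Del8 and -0.40, -0.36 and -0.34 in WT, which overlapped. Of 15 protocadherin bins 1 was a member, with Pcdhb15, Pcdhb16, Pcdhb17, Pcdhb18 and Pcdhb19, adhesion molecules of neurons, on chromosome 18 (37450001). It scored -0.25, -0.25 and -0.23 in Del8 and -0.03, -0.10 and -0.01 in WT. Ribosomal protein names gave 3 members of 87 bins, those of Rpl27a, Rps9 and Rps19bp1, the last a binding partner and not a ribosomal protein. Zfp genes gave 4 of 315 bins, with Zfp229 and Zfp760, Zfp236, Zfp518a and Zfp729a. Olfactory receptors gave 9 of 561. No bin of the primitive endoderm (8), trophectoderm (7), neural (7), DNA methylation (11), keratin (26) or histone (13) lists was a member.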

How the data were processed

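For each library the authors deposited 1 file of raw contact counts between 50 kb bins, within chromosomes. Coordinates are those of mm10 per the submitters' processing notes, and which aligner and filters were used was not given in the sources used here. Autosomal bins with at least 20 contacts in every library (45645 of 47875) were kept. Files were scaled to equal totals, summed by group and balanced by iterative correction without the diagonal. Scores needed 50% of the square, and gaps were closed in the search for minima. The strict screen (27804 bins) asked for at least 0.5 of the third highest scaled coverage and over 0.1 of the library's own scale. Gene starts were transcription starts from RefSeq promoters for 16457 of 20665 protein-coding genes and lower coordinates for the others. Contact beyond 1 Mb and up to 2 Mb was divided by the mean at its separation and tested with limma 3.58.1 (edgeR 4.0.16 and DESeq2 1.42.0 as alternatives, R 4.3.3), Benjamini-Hochberg adjusted. Scripts ran in Python 3.11.15 with scipy 1.17.1 and were tested on simulated data.

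The members and gene lists were chosen with earlier results of these data known. Named members were the 8 of greatest prominence, the 8 with the largest fall of score, those beside the threshold, and list genes. The 8 of greatest prominence among members in all Del8 and no WT library were also named. The division by coverage, the dip and further settings were added after the data were examined. The shorter motif letters were chosen after the longer form had been searched. Each library counts as a replicate as labelled.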

Additional observations from a re-analysis of the deposited data

How the results depend on the processing

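The number of boundaries called only in Del8, 683, was 462 to 1011 under the settings not named below. It was 450 with at least 100 contacts in every library, 313 with the strict screen, 324 with the strict screen and WT replicate 3 alone, and 1463 for Del8 replicate 3 against WT replicate 3. Leaving out 1 library gave 636 to 1148, the highest without WT replicate 3. The median score difference at the members, -0.10, was -0.16 with a 250 kb square, -0.0103 with a 1 Mb square, 0.11 without balancing, -0.40 for Del8 replicate 3 against WT replicate 3, and -0.15 to -0.08 with 1 library left out. The share found again in the Del8 library left out, 60.2%, was 66.4% at prominence 0.1 and 80.3% with the strict screen. In the WT library left out it was 33.2%, against 40.3% at prominence 0.1 and 20.4% with the strict screen. Contact beyond 1 Mb, with 0 bins called, had 5507 higher and 3393 lower with the strict screen, 555 and 1191 with edgeR, 2994 and 7213 with DESeq2, and with 1 library left out 0 to 18805 higher and 0 to 8495 lower, all calls coming without WT replicate 3. The median difference over all bins was 0.27, and -0.04 with each library centred on its median, where 0 bins were called either way. The cause of these changes was not tested, and the main fit, which called 0 bins, had recovered 0% of planted changes. A fit with the replicate number as a block called 0 higher and 0 lower. Deviations from the group mean correlated at -0.292, -0.258 and -0.397 between same-numbered libraries. They correlated at -0.287 between Del8 replicate 2 and WT replicate 1, and at 0.358 between Del8 replicate 1 and WT replicate 3. Such deviations cancel out within a group of 3, so these values cannot decide whether the numbers pair the libraries.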
